A study of Mus musculus with 9 samples.

Results

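The Krüppel-like factors Klf2, Klf4, Klf6, Klf7, Klf10 and Klf13 were followed across mouse brain cells profiled by droplet single-cell RNA sequencing. These 6 genes were taken by name from the 18634 genes of the count table. Cells came from brainstem, cortex and hypothalamus of male C57BL/6 mice aged 9 to 11 weeks, and the labels name no transgene or mutation. Mice of the normal sleep (NS) group slept undisturbed, those of the sleep-deprived (SD) group were kept awake for 12 h, and those of the recovery sleep (RS) group were deprived in the same way and then left to sleep. Recovery lasted 24 h by 1 label and 12 h by another, and all tissue was taken at zeitgeber time 12, when the lights go off. Each library was made from 3 animals together, and each of the 9 combinations of region and sleep was sequenced as 1 library. With no replicate, no difference below was tested.

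The 9 libraries are called 1 to 9 in the order of their codes in the table, which the labels do not explain. Library 7 held all 1999 barcodes that the study lists for brainstem NS, against 5 to 13 of them in each other library, and was taken as brainstem NS. The remaining 8 libraries could not be tied to a sample, so their values are given side by side and no sleep group was compared with another. The libraries held 2575 to 3916 cells and 1522766 to 5488950 unique molecular identifiers (UMIs, each standing for 1 captured transcript), with a median of 402 to 1055 UMIs per cell. Of 29015 distinct cell barcodes, 549 occurred in 2 or more libraries, and any pair of libraries shared 5 to 25. Gh, the growth hormone gene of the pituitary, took 25.3% to 32.1% of the UMIs of libraries 4 to 6, and hemoglobin genes took 3.22% to 6.79% of those of libraries 7 to 9. Levels are UMIs summed over the cells named, per 1000000 UMIs of the same cells (CPM), with exact 95% Poisson intervals. Shares of cells carry exact 95% Clopper-Pearson intervals, and both kinds of interval cover counting error only. A range after a ratio of levels divides opposite ends of their intervals, with 10 CPM added to each. It is not a 95% interval of the ratio.

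Krüppel-like factors are transcription factors that bind GC-rich and CACCC-containing DNA through zinc fingers at their carboxyl end. Klf2 and Klf4 are known in vascular endothelium as genes switched on by blood flow, through a kinase cascade that ends at MEF2 factors, and as regulators of genes for vessel tone, clotting and inflammation. Klf6 and Klf7 are close relatives of each other that act mainly as activators, whereas Klf10, a gene induced early by TGF-beta, and Klf13 belong to the repressor branch of the family. Several members are also known to be induced fast when cells are stimulated or stressed, which includes tissue dissociation.

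The upstream sequences of Klf2 and Klf4, the pair known to respond to flow, are shown to place the MEF2 and GC-rich motifs. Promoters were available from RefSeq (GRCm38.p6, 250 bases before to 50 after the start site) for 5 of the 6 genes, all but Klf10. The stretches below run from 230 to 51 bases before the start site, 5′ to 3′ on the gene's strand, and capitals mark GGGCGG on either strand and the MEF2 site. The Klf2 stretch is chr8:72318832-72319011 on the plus strand, and the Klf4 stretch is chr4:55532526-55532705 on the minus strand.
Klf2: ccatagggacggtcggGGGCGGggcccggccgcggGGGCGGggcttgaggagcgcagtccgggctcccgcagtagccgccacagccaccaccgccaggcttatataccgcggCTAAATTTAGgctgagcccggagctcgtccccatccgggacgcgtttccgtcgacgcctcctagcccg
Klf4: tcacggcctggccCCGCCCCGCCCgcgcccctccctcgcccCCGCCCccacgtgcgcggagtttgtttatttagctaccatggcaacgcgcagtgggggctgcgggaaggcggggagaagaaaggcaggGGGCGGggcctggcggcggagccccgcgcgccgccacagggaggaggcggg

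Of the 5 promoters, that of Klf2 alone held the MEF2 site, CTAAATTTAG at 118 bases before the start site, which 3.19% of 32851 promoters of the same length hold. The motif GGGCGG was found on either strand 2 times in Klf2, 4 times in Klf4, 3 times in Klf13 and 1 time each in Klf6 and Klf7, and 35.7% of all promoters hold it. In Klf4, 2 of the 4 matches share a base. Klf4 and Klf6 each held CACGTG 1 time, a motif of 7.15% of promoters. CACCC was found 3 times in Klf7 and 1 time each in Klf2 and Klf13, and 57.5% of promoters hold it. These matches describe letters within the windows and were set against no binding data. Distances are from the start sites of RefSeq. For Klf13 this is also the start site of the GENCODE position given at the end, and for the other promoters the start sites differ. The Klf7 window lies within the GENCODE gene.

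In brainstem NS, Klf2, Klf4, Klf6, Klf7 and Klf13 were highest in endothelial cells, the cells lining the vessels, among the 8 listed types of at least 50 cells. Klf2 stood out by level, and Klf10 was led by macrophages on few UMIs. Against the other listed cells, 5 of the 6 members were at least 2-fold higher in the 573 endothelial cells on the scale of CPM + 10, where 9.89% of 9483 genes were. The exception was Klf10, at 1.62 times. In macrophages, 1 of 6 was at least 2-fold higher, which was Klf10 (all genes, 5.46%). That call rests on 1 cell, which held 5 of its 7 UMIs, and without it macrophages had 24.8 CPM, against 20.8 CPM in the other listed cells. No member was so in microglia (8.62%), VSMCA (arterial vascular smooth muscle cells, 4.98%), pericytes (6.76%), astrocytes (10.7%), ependymocytes (EPC, 12.5%) or glutamatergic neurons (12.9%).

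Lower calls ran the other way. All 6 were at least 2-fold lower in EPC (22% of all genes) and in glutamatergic neurons (45.7%), and 5 were in astrocytes (24%). The counts were 3 in pericytes (19.7%) and macrophages (37.4%), 2 in microglia (23.4%) and VSMCA (25.6%), and none in endothelial cells (16.6%). The Klf10 calls among these rest on no UMI in glutamatergic neurons, astrocytes, pericytes and VSMCA, and on 1 UMI in EPC. By the upper ends of their intervals, a count of 0 allows up to 70.3, 21.7, 24.9 and 12.0 CPM in these 4 types. The other listed cells had 23.7 to 26.8 CPM, so a 2-fold lower level of Klf10 was not detectable at this depth in the first 3 of these. In VSMCA the limit is more than 2-fold lower in CPM, though not on the CPM + 10 scale of the calls. Other calls in glutamatergic neurons are as thin, with no UMI of Klf13, 1 each of Klf4 and Klf6 and 2 of Klf7. Intervals there reach 106 CPM for Klf4 and for Klf6 and 138 CPM for Klf7. The other listed cells had 84.7, 136 and 97.4 CPM, so a 2-fold lower level was not resolved for these genes. Calls in other types were unresolved too. Intervals of Klf4 and Klf7 in macrophages, on 3 UMIs each, reach 106 CPM, against 84.9 and 98.3 CPM in the other listed cells. Those of Klf4 and Klf13 in pericytes reach 78.9 and 124 CPM, against 86.6 and 152 CPM. In EPC, those of Klf10 and Klf13 reach 32.7 and 123 CPM, against 24.5 and 153 CPM. Klf6 in astrocytes and EPC, Klf7 in microglia, Klf4 in VSMCA and Klf2 in macrophages also had intervals that pass a 2-fold lower level.

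The label of the endothelial cells was borne out by their markers. The summed level of 8 endothelial markers, among them Cldn5 of the tight junction and Slco1a4, a transporter of the blood-brain barrier, was 17758 CPM in endothelial cells and 331 to 1411 CPM in the other types of at least 50 cells. The 43 cells listed as oligodendrocytes had only 820 CPM of oligodendrocyte markers, beside 3763 CPM of astrocyte and 2089 CPM of fibroblast markers, and are given below under their listed name. Of the endothelial cells, 41 fell in a rebuilt cluster led by pericyte genes such as Abcc9 and Rgs5, while 308 and 220 lay in 2 clusters led by endothelial genes. The listed pericytes had 9626 CPM of fibroblast markers beside 15947 CPM of pericyte markers.

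**Figure D1:**
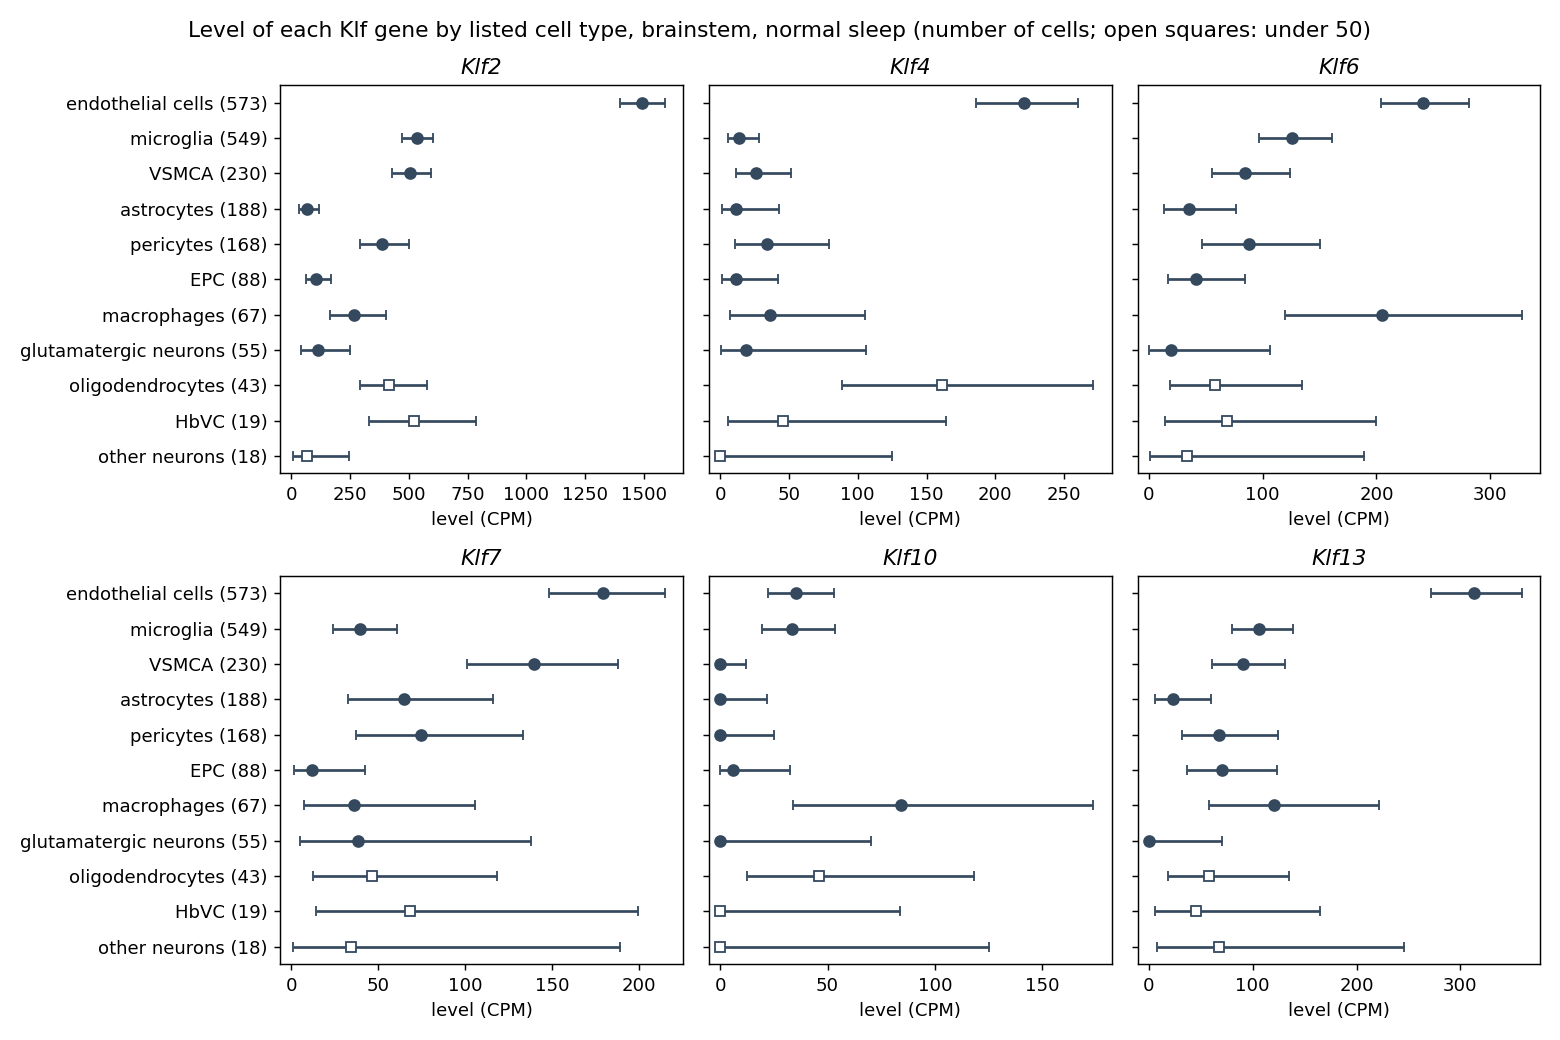
Level of each gene (x axis, CPM from 0) in each listed cell type of the brainstem NS library (y axis, number of cells in brackets); points are CPM, bars are exact 95% Poisson intervals, and open squares mark types of under 50 cells. Klf2 stands at 1491 CPM in endothelial cells, apart from every other type, while the Klf6 and Klf7 intervals of endothelial cells overlap those of macrophages and of VSMCA, respectively.

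Klf2 reached 1491 CPM (1399 to 1588) in endothelial cells, from 967 UMIs. Microglia, the resident immune cells of the brain, followed at 534 CPM (473 to 602), VSMCA at 506 CPM (430.02 to 592) and pericytes, the contractile cells wrapped around capillaries, at 385 CPM (292 to 499). Neighbours in this order from microglia to pericytes had overlapping intervals, and the step from endothelial cells to microglia was 2.76-fold (2.30 to 3.31) with none. In cells of at least 1000 UMIs this step was 1.73-fold. Macrophages had 265 CPM, glutamatergic neurons 114 CPM, EPC 106 CPM and astrocytes 64.7 CPM (32.3 to 116). Among the small types, HbVC (hemoglobin-expressing vascular cells, 19 cells) had 523 CPM, oligodendrocytes 416 CPM and the 18 other neurons 67.9 CPM. The 19 HbVC also had 4277 CPM of endothelial markers.

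The share of cells with a Klf2 UMI was 68.6% in endothelial cells, at a median of 910 UMIs per cell, and 5.32% in astrocytes, which are not known for this gene, at a median of 771 UMIs. After thinning each cell to 500 UMIs, it was 53.5% (49.3 to 57.7) in endothelial cells, 11.7% in VSMCA, 10.9% in microglia and 2.16% in astrocytes. Klf2 UMIs were spread broadly over endothelial cells: the 10 cells with most of them held 8.89%. In microglia the top 10 cells held 49.1% of the Klf2 UMIs, in VSMCA 57.1% and in pericytes 87.7%, so in those types the level rests on few cells.

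Klf4 had 221 CPM (186 to 260.0) in endothelial cells. Macrophages came next with 36.1 CPM from 3 UMIs, a step of 5.0-fold (1.69 to 15.5), and the remaining types of at least 50 cells had 11.7 to 33.8 CPM. The 43 listed oligodendrocytes had 162 CPM (88.3 to 271) from 14 UMIs, which overlaps the endothelial interval. A Klf4 UMI was seen in 18.8% of endothelial cells, against 1.06% of astrocytes and 0.911% of microglia, and in 9.47%, 0.541% and 0.738% after thinning.

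Klf6 was close in endothelial cells and macrophages. It had 241 CPM (204 to 281) in endothelial cells, 205 CPM (119 to 328) in macrophages and 126 CPM (97.2 to 161) in microglia. The ratio of the first pair was 1.17 (0.634 to 2.25), so their order is not resolved, and microglia lay below endothelial cells without overlap. Glutamatergic neurons, with 1 UMI, stood lowest at 19.1 CPM.

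Klf7, best known from neurons during development, was highest in endothelial cells and VSMCA among the listed types. Endothelial cells had 179 CPM (148 to 215) and VSMCA 139.6 CPM (101 to 188), a ratio of 1.26 (0.797 to 2.02). Pericytes had 74.4 CPM, astrocytes 64.7 CPM and microglia 39.4 CPM. EPC stood lowest at 11.7 CPM from 2 UMIs.

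Klf13 had 313 CPM (271 to 359) in endothelial cells, the level after that of Klf2. Macrophages followed at 120.4 CPM (57.7 to 221), a step of 2.48-fold (1.22 to 5.45), microglia at 106 CPM and VSMCA at 90.9 CPM. In cells of at least 1000 UMIs the step was 7.94-fold. No Klf13 UMI was found in 55 glutamatergic neurons, which allows a level of up to 70.3 CPM. Comparisons of level between genes are in UMIs and were not adjusted for transcript length.

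Klf10 was the scarcest, with 52 UMIs in all 1999 listed cells. Macrophages stood highest at 84.3 CPM (33.9 to 174), from 7 UMIs in 3 cells, of which 5 UMIs came from 1 cell. Without that cell the level was below that of endothelial cells, so the order turns on it. Endothelial cells had 35.5 CPM (22.5 to 53.2) and microglia 33.5 CPM (19.5 to 53.7), which cannot be ordered. None was found in 230 VSMCA, 188 astrocytes or 168 pericytes, which allows up to 12.0, 21.7 and 24.9 CPM.

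Most endothelial cells carried at least 1 of these transcripts. In 570 endothelial cells thinned to 500 UMIs, 257 had UMIs of 1 member, 115 of 2 and 23 of 3 or more, so 69.3% had any. That share was 27.8% in VSMCA, 27.3% in macrophages, 22.3% in microglia and 5.68% in EPC. In brainstem NS, the pairs of Klf2 with Klf4, Klf7 and Klf13 met in the same endothelial cell about as often as the product of their shares. Klf2 and Klf4 were both found in 29 cells, where the product gives 28.9, Klf2 and Klf7 in 23 where it gives 23.0, and Klf2 and Klf13 in 50 where it gives 46.6. In endothelial-like cells of all 9 libraries, Klf2 and Klf4 met in 194 cells where the products within libraries sum to 173, and were above the product in 8 libraries, all but brainstem NS. The other pairs went both ways, with Klf7 and Klf13 in 39 cells against 29.2, Klf6 and Klf7 in 32 against 24.0, and Klf4 and Klf13 in 38 against 42.5.

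Within microglia, VSMCA and pericytes, Klf2 differed several-fold between clusters. Clusters were rebuilt from library 7 without the 6 members among the genes used, but with immediate early genes, which respond within minutes to a stimulus. Listed microglia fell into a cluster led by P2ry12 and Selplg, genes of resting microglia, and another led by Ccl4, Ccl3 and Fos, that is, chemokines and an immediate early gene. Klf2 had 136 CPM (99.8 to 182) in the 404 cells of the first and 1402 CPM (1225 to 1598) in the 137 cells of the second, which is close to the endothelial level. The summed level of 15 immediate early genes was 1660 CPM in the first and 11168 CPM in the second. Klf6 moved the same way between them, from 65.2 CPM (40.9 to 98.7) to 263 CPM (189 to 355). Klf13 had 113 CPM (79.7 to 155) and 87.6 CPM (47.9 to 147), with overlapping intervals, and Klf7 had 47.4 CPM (27.1 to 77.0) and 12.5 CPM (1.52 to 45.2), which overlap too.

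VSMCA also fell in 2 clusters that differed in immediate early genes. In 206 VSMCA of a cluster led by contractile genes, Klf2 had a level within 193 to 317 CPM, from 66 UMIs, beside 1193 CPM of immediate early genes. In 23 VSMCA of a cluster with Fos, Nr4a1 and Cyr61 among its leading genes, it had 2146 CPM (1723 to 2640.3), beside 11114 CPM. Klf7 had 155 CPM (111 to 210.0) and 48.2 CPM (5.84 to 174), with overlapping intervals. Listed pericytes were divided by cell identity. Of these, 117 lay in a pericyte-like cluster with 59.9 CPM of Klf2 (19.5 to 139.8) from 5 UMIs. Another 46 lay in a cluster named from fibroblast and leptomeningeal markers such as Dcn and Lum, with 876 CPM (654 to 1148), and these held 52 of the 57 Klf2 UMIs of listed pericytes. Immediate early genes had 647 and 6163 CPM in these clusters. In the 3 clusters that hold endothelial cells, Klf2 had 1510.4, 1649 and 1138 CPM and immediate early genes 1835, 1494 and 1098 CPM.

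**Figure D2:**
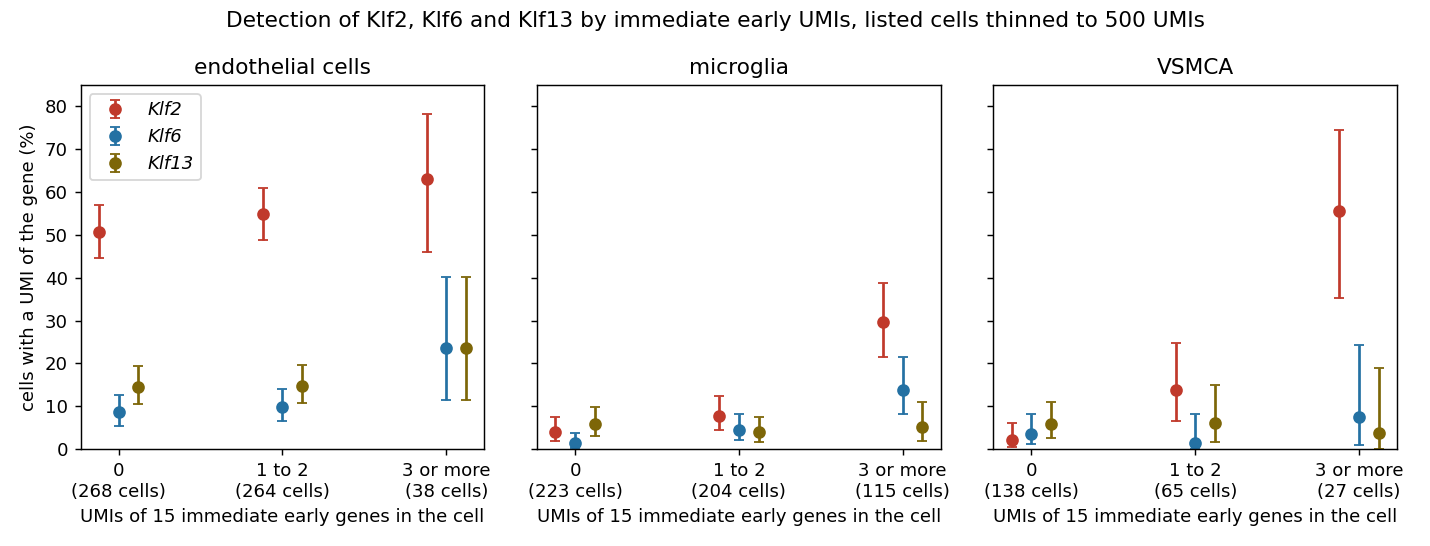
Share of cells with a UMI of Klf2, Klf6 or Klf13 (y axis, percent) by the number of immediate early UMIs in the same cell (x axis, number of cells in brackets), for listed endothelial cells, microglia and VSMCA thinned to 500 UMIs; bars are exact 95% Clopper-Pearson intervals. Klf2 climbs from 4.04% to 29.6% in microglia and from 2.17% to 55.6% in VSMCA, and is already at 50.7% in endothelial cells without an immediate early UMI.

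Cell by cell, the same pattern was seen. Among listed microglia thinned to 500 UMIs, a Klf2 UMI was found in 4.04% (1.86 to 7.52) of 223 cells with no immediate early UMI, 7.84% of 204 cells with 1 to 2, and 29.6% (21.4 to 38.8) of 115 cells with 3 or more. In VSMCA the shares were 2.17% (0.451 to 6.22), 13.8% and 55.6% (35.3 to 74.5). Endothelial cells had 50.7% (44.6 to 56.9) without an immediate early UMI, 54.9% with 1 to 2, and 63.2% (46.0 to 78.2) with 3 or more, with overlapping intervals. Over all 9 libraries, endothelial-like cells ran from 50.6% to 65.4% and microglia-like cells from 5.60% to 30.5% between the same classes. These shares pool libraries that differ in both measures. Within libraries, endothelial-like cells with 3 or more immediate early UMIs had a higher share with Klf2 than those with none in 8 of 9, as they had for Klf4, with overlapping intervals in each. The part of immediate early induction in the Klf2 level of any type was not tested.

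The ratio of Klf2 to endothelial marker UMIs differed widely between types. Per 100 UMIs of the 8 endothelial markers there were 8.40 Klf2 UMIs in endothelial cells, 6.21 in astrocytes and 8.11 in glutamatergic neurons. The ratio was 96.4 in microglia, 153 in VSMCA, 43.1 in macrophages, 35.6 in pericytes and 22.8 in EPC. Among the small types it was 64.3 in the 43 listed oligodendrocytes and 12.2 in the 19 HbVC. Of the 8 types of at least 50 cells, astrocytes and glutamatergic neurons lay near the endothelial ratio, and the other 5 lay above it.

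Over whole libraries, Klf2 varied most of the 6. Its lowest level was 143 CPM in library 4, its median 295 CPM and its highest 617 CPM in library 8, a ratio of 4.09 on the CPM + 10 scale. Of 9673 genes of at least 10 CPM, 80.8% had a smaller ratio between their extreme libraries, and 58% differed at least 2-fold. Libraries 7, 8 and 9 were the highest for Klf2, at 608, 617 and 463 CPM, and no other library passed 334 CPM. Their share of endothelial-like cells was also the highest, at 24.8%, 21.5% and 15.4%, against 1.89% to 9.51% elsewhere, and the part of this share in the level was not tested.

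Klf4 ran from 24.0 CPM in library 4 over a median of 44.9 CPM to 95.3 CPM in library 8, a ratio of 3.10, and libraries 7 to 9 were again its highest. Klf7 ran from 32.2 to 92.4 CPM (ratio 2.42), and libraries 4 to 6 were its lowest. Klf13 ran from 86.2 CPM in library 5 to 197 CPM in library 3 (2.15), and Klf6 from 66.5 CPM in library 3 to 125 CPM in library 7 (1.76). Klf10 stayed between 16.2 and 34.6 CPM (1.70), with overlapping intervals for most pairs of libraries. The ratios of Klf4 and Klf2 stood above those of most genes (70.7% and 80.8% were smaller), and those of Klf6 and Klf10 below (28.7% and 25%). In a whole library, fewer cells of a type and less RNA per cell cannot be told apart.

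**Figure D3:**
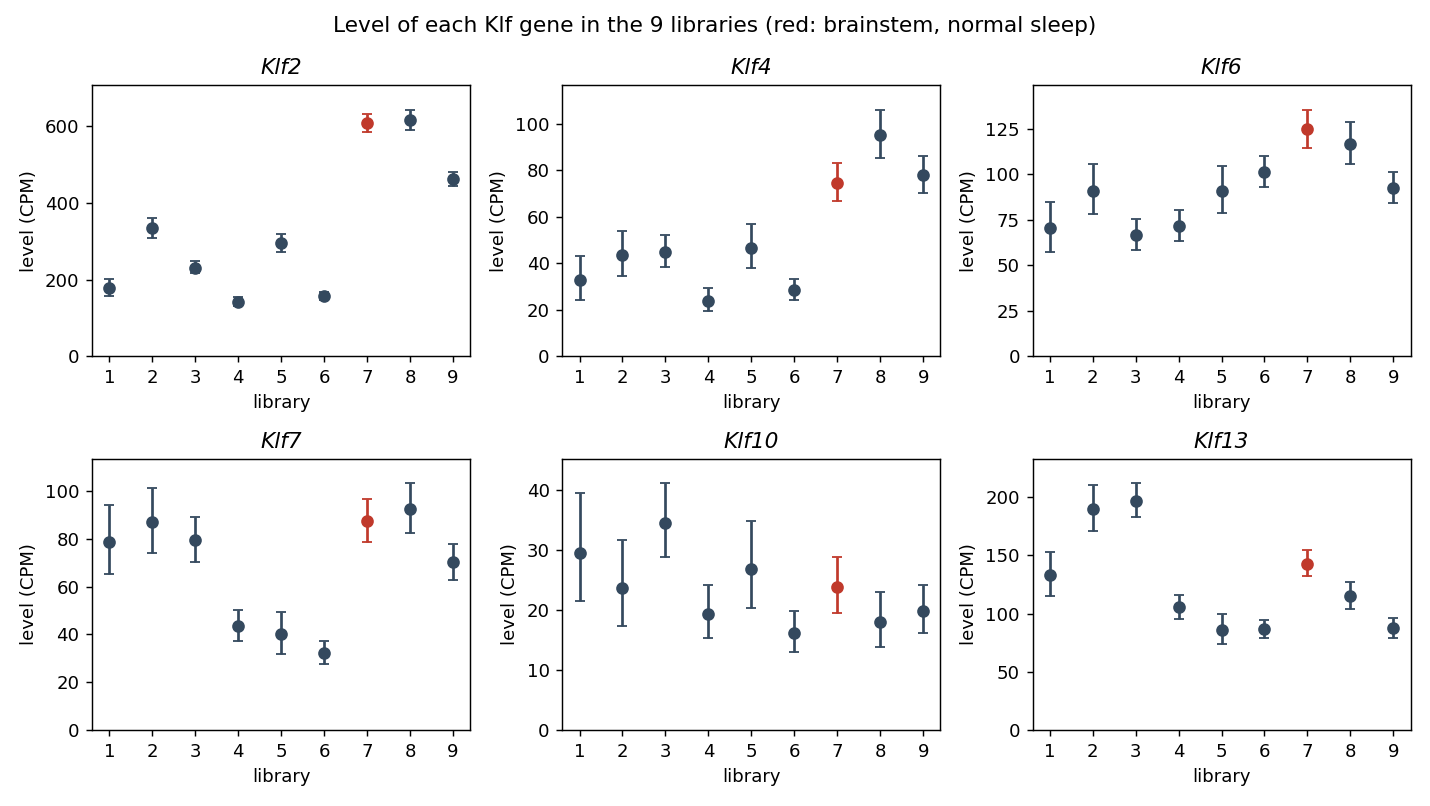
Level of each gene (y axis, CPM from 0) in the 9 libraries (x axis, in the order of their codes); points are CPM, bars are exact 95% Poisson intervals, and red marks brainstem NS. Klf2 stands at 463 to 617 CPM in libraries 7 to 9 and at 143 to 334 CPM in the other 6.

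To compare like cells across libraries, all 29571 cells were clustered together without the members, and clusters were named as "-like" from markers. Endothelial-like cells numbered 3366 in all and 74 to 927 per library. Among the named classes of at least 50 cells in a library, they had the highest Klf2 level in 9 of 9 libraries. It ran from 1573 CPM in library 9 over a median of 2272 CPM to 3281 CPM in library 5. Klf2 was at least 2-fold higher in endothelial-like cells than in the other cells of the same library in all 9, and so was Klf4, where 3.08% of 9673 genes were. As the highest class for Klf4, endothelial-like cells stood in 5 of 9 libraries, fibroblast or leptomeningeal-like cells in 2, and macrophage-like and pituitary stem or folliculostellate-like cells in 1 each. Those other 4 leads rest on 9 to 27 UMIs, and their intervals overlap that of endothelial-like cells in the same library, so the order there is not resolved. The Klf2 ratio was 4.73 to 5.15 in libraries 7 to 9 and 19.0 to 21.7 in the other 6, and that of Klf4 ran from 4.81 to 14.5. The cells set against the endothelial-like cells differed in make-up. VSMCA-like cells were 11.3% to 13.4% of libraries 7 to 9 and 0.0766% to 5.17% of the other 6. Pericyte-like cells were 7.62% to 9.72% and 0.383% to 3.28%, and microglia-like cells 14.8% to 26.5% and 0.638% to 18.0%. The part of this make-up in the ratios was not tested. Endothelial-like cells had 1573 to 1829 CPM in libraries 7 to 9 and 1744 to 3281 CPM in the other 6, so the libraries highest for Klf2 as a whole were not the highest within this class. The 123 HbVC-like cells of library 7 had 24.6 CPM of Klf2, against 523 CPM in the 19 listed HbVC.

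The other members followed endothelial-like cells less regularly. Klf6 was at least 2-fold higher there in 8 libraries, Klf7 and Klf13 in 7 and Klf10 in 6. The share of all genes that reach these numbers of libraries was not computed, so they are not read as high or low. Klf6 ran from 95.0 CPM in library 6 to 439 CPM in library 1, Klf7 from 119.6 to 211 CPM, and Klf13 from 179 to 390.3 CPM. Klf10 ran from 19.9 CPM in library 1, from 1 UMI, to 189.9 CPM in library 6, from 14, of which 5 came from 1 cell. Library 5 followed at 145 CPM. When the cell with most Klf10 UMIs was left out of each library, both stood at 123 CPM, so their order turns on single cells. Immediate early genes in endothelial-like cells ran from 1562 CPM in library 9 to 3915 CPM in library 5 and 5670.3 CPM in library 6, and their part in the Klf10 levels was not tested. In neuron-like cells of the 9 libraries, Klf13 ran from 34.0 CPM over a median of 63.7 CPM to 220 CPM in library 2.

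**Figure D4:**
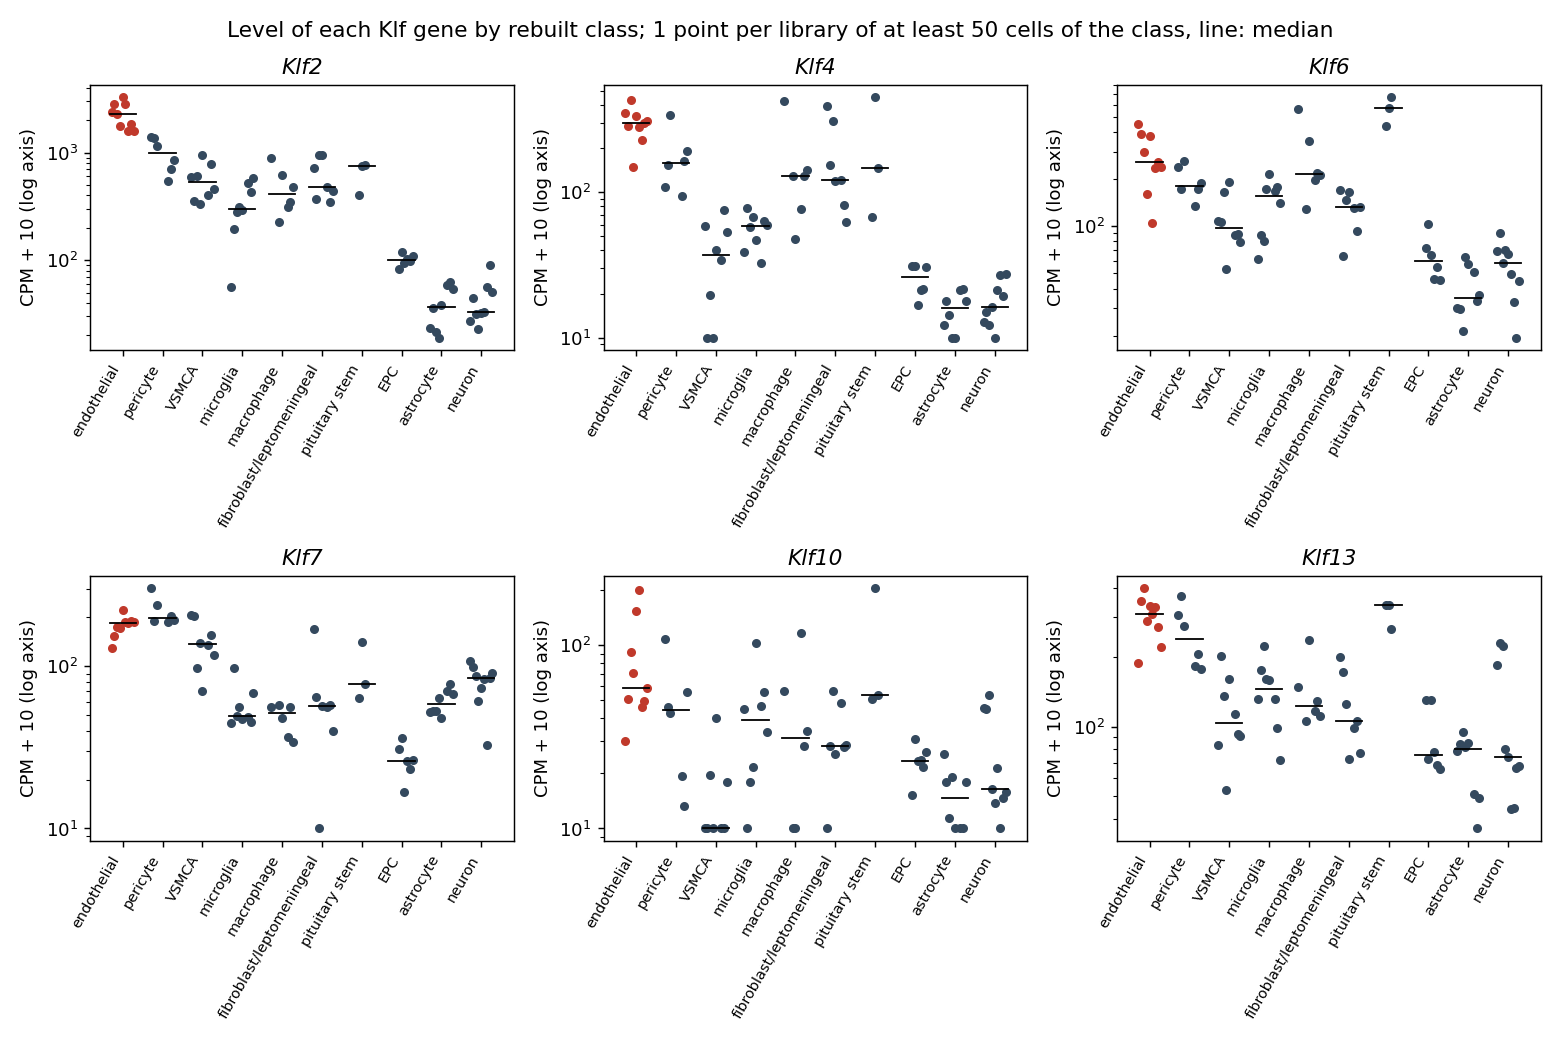
Level of each gene (y axis, CPM + 10 on a log axis) in rebuilt classes (x axis), with 1 point for each library that holds at least 50 cells of the class, lines at the median, and endothelial-like cells in red. Klf2 in endothelial-like cells lies at 1573 to 3281 CPM before 10 is added, and Klf6 is highest in the pituitary stem or folliculostellate-like class of the 3 libraries that have it.

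Endothelial-like cells fell in 2 clusters, whose order varied by library. A cluster led by Plvap and Igfbp3 held 1891 cells, and another led by Slco1a4 and Pglyrp1 held 1475. Klf2 had 1814 CPM (1744 to 1886) in the first and 1881 CPM (1814 to 1949) in the second, and Klf7 had 157 and 189 CPM. Klf13 had 257 CPM (231 to 285.0) and 311 CPM (284.6 to 339.8). Klf4 was at 239.8 CPM (215 to 267) and 296 CPM (269.7 to 324), Klf6 at 213 CPM (189 to 238) and 272 CPM (247 to 299). These values pool libraries of different level. In the 6 libraries with at least 50 cells of both clusters, Klf2 was higher in the second in 5, without overlap in library 3 (2704 CPM, 2432 to 2998, against 1682 CPM, 1435 to 1961) and library 9 (1761 CPM, 1620 to 1912, against 1368 CPM, 1239 to 1508). Klf4 was higher in the second in 5 and lower in library 5 (224 against 375 CPM), and the intervals were apart only in library 3 (563 against 226 CPM). Klf6 was higher in the second in all 6, with overlapping intervals in each.

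Outside the endothelium, Klf6 reached its highest level in cells that resemble the stem or folliculostellate cells of the pituitary. That class was found in libraries 4, 5 and 6, with 427, 556 and 661 CPM of Klf6, against 151, 367 and 95.0 CPM in endothelial-like cells of the same libraries. In library 5 the intervals of these classes overlap, so the order there is not resolved. Klf2 had 394 to 753 CPM and Klf13 254 to 328 CPM in the same class. Immediate early genes had 11846 CPM in its cluster, and endothelial markers only 58.9 CPM.

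Klf7 was highest in pericyte-like cells in 5 of the 6 libraries that held at least 50, at 177 to 295 CPM, with intervals that overlap those of endothelial-like cells in each. These cells fell in 2 clusters that differ in endothelial markers. The first, with 632 cells, had 11402 CPM of endothelial markers, 1160.1 CPM of Klf2 and 218 CPM of Klf7, and the second, with 610 cells, had 608 CPM, 58.9 CPM and 137 CPM. A microglia-like cluster of 163 cells (11005 CPM of endothelial markers, 1083 CPM of Klf2) and an unnamed one of 345 cells led by astrocyte genes (7189 CPM and 858 CPM) were mixed in the same way. When these 3 clusters were left out, a choice made after seeing the data, endothelial-like cells were the highest class for Klf7 in 7 libraries instead of 3, and for Klf2 still in 9.

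Klf2 in microglia-like cells depended on the cluster in the other libraries too. The cluster with Ccl4 and Ccl3 among its leading genes had 569 CPM (531 to 610) over all libraries, beside 5527 CPM of immediate early genes, and the one led by Crybb1 and C1qa had 90.2 CPM (69.9 to 115), beside 1615 CPM. In the 6 libraries with at least 20 cells of the first cluster, Klf2 had 109 to 1027 CPM in it, and 14.6 to 142 CPM in the second, and was higher in the first in each of the 6. In libraries 1 and 3 the first cluster gave 3 and 4 UMIs. The 1027 CPM of library 4 rest on 14 UMIs in 3 of 23 cells, 9 of them in 1 cell, and the highest of the other 5 was 662 CPM. In library 3 the first cluster had 6660 CPM of immediate early genes but only 109 CPM of Klf2 (29.8 to 280). This overlaps the interval of the second cluster there (41.4 CPM, 5.02 to 150). The second cluster of library 5 had 290 CPM of Klf2 beside 5197 CPM of immediate early genes. Over all libraries, endothelial markers were at 466 and 311 CPM in the first and second clusters.

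The lists that follow are read against all 9483 genes tested, of which 9.89% were at least 2-fold higher and 16.6% at least 2-fold lower in endothelial cells. Of 20 further Klf and Sp genes, 19 were in the table and 8 had at least 20 UMIs in the listed cells, of which 2 were at least 2-fold higher in endothelial cells and none lower. Their median ratio was 1.31, against 1.01 over all genes tested. Klf9, which responds to glucocorticoids, had 194 CPM in endothelial cells (2.03-fold), near the 179 CPM of Klf7. Klf11, a relative of Klf10 that was named after its values were seen, had 35.5 CPM in endothelial cells (2.08-fold). From 42 UMIs in the listed cells, it led in pericytes at 40.6 CPM (14.9 to 88.3), an interval that holds the endothelial level. Klf3 had 134 CPM in endothelial cells (1.58-fold). Klf15, another gene that responds to glucocorticoids, led in astrocytes at 118 CPM (71.9 to 182), and Sp4 in pericytes at 67.6 CPM. Sp1 and Sp3, which bind the same GC-rich DNA in most cells, had 37.0 and 77.1 CPM in endothelial cells. They led in VSMCA at 61.7 CPM and in pericytes at 101 CPM, respectively.

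Of 13 genes tested from the flow-sensing cascade upstream of Klf2 and Klf4, 5 were at least 2-fold higher in endothelial cells and 1 was lower (all genes, 9.89% and 16.6%), with a median ratio of 1.49. The highest ratios were those of Rasip1 (9.42-fold, 137 CPM) and Cdh5 (8.64-fold, 276 CPM), both genes of the endothelial junction, and 3 of the 5, Cdh5, Pecam1 (7.18-fold) and Kdr (8.13-fold, both named for this reason), are themselves among the endothelial markers. Mef2c, a MEF2 factor, was the lower gene at 233 CPM in endothelial cells and 1021 CPM (935 to 1113) in microglia. Mef2a had 185 and 426 CPM in these types. Krit1 and Pdcd10, which restrain the cascade as parts of the cerebral cavernous malformation complex, had 140.3 CPM (1.12-fold) and 293 CPM (1.86-fold) in endothelial cells.

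Among 11 endothelial genes tested that are known as Klf2 or Klf4 targets, 7 were at least 2-fold higher in endothelial cells and 3 lower, with a median ratio of 2.61. Tek, the angiopoietin receptor, had the largest ratio at 12.3-fold (298 CPM), and S1pr1, the sphingosine phosphate receptor, had 461 CPM there but 706 CPM in astrocytes. Plat, the tissue plasminogen activator, had 188 CPM in endothelial cells and 277 CPM in pericytes. Hmox1, heme oxygenase, was led by macrophages at 132 CPM and had 1 UMI in endothelial cells. Nfe2l2, the oxidative stress regulator, differed little, at 1.23-fold. The list was drawn up for endothelium, so its direction there is no independent evidence. It was not divided by whether Klf2 or Klf4 raises or lowers a gene, so the count does not measure their activity.

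Of 14 genes of the TGF-beta pathway, in which Klf10 acts, 3 were at least 2-fold higher in endothelial cells and 3 lower (median ratio 1.23), where 9.89% and 16.6% of all genes were. Acvrl1 and Eng, receptor and co-receptor of endothelium, had 288 CPM (10.2-fold) and 279 CPM (5.51-fold). Tgfbr1 was highest in microglia at 828 CPM, and Skil, a feedback inhibitor, was too at 242 CPM. Of the 15 immediate early genes, 1 was higher in endothelial cells, near the share of all genes, and 8 were lower, with a median ratio of 0.447. Junb (1264 CPM), Jun (881 CPM) and Zfp36 (239 CPM) led in microglia, and Jund in EPC at 428 CPM. Dusp1 had 386 CPM (320.0 to 462) in VSMCA and 370.1 CPM (325 to 420.0) in endothelial cells, which overlap. Of 5 heat shock genes, 1 was higher in endothelial cells, namely Hspb1 at 464 CPM (2.27-fold), and 1 was lower, counts too small to set apart from the shares of all genes. Hspa1a led in microglia at 260.2 CPM, Hsph1 in EPC at 217 CPM and Dnajb1 in pericytes at 87.9 CPM.

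Across the 8 types of at least 50 cells, the members' patterns were compared with 5134 genes by Pearson's r of log2(CPM + 10). The 8 types share 1 library and differ in depth and number of cells, so r is a description. The genes most like Klf2 were 1700020I14Rik (r = 0.948), Rassf1 (0.946) and Adipor1 (0.939), and those most like Klf4 were Tmem252 (0.968), Luzp1 (0.960) and Ctla2a (0.95). Epas1, the hypoxia factor of endothelium, came after Sfxn3 and Tns1 for Klf7 (0.933). Slfn2 (0.969), Apobec3 and Psmb9, genes of immune cells, were nearest to Klf10, whose profile has 4 types at 0 and a macrophage level that rests on 1 cell. For Klf6 the nearest were Ostf1 (0.983), Psme2b and Vps29, and for Klf13 Eif3f (0.989), Ezh1 and Emg1. Among the members, Klf6 and Klf13 were the most alike (0.904), then Klf2 and Klf6 (0.822), and Klf7 and Klf10 the least (-0.0610).

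By GENCODE M21 on GRCm38, Klf2 lies at chr8:72319033-72321656 (plus strand), Klf4 at chr4:55527143-55532466 (minus), Klf6 at chr13:5861482-5870394 (plus), Klf7 at chr1:64029447-64122282 (minus), Klf10 at chr15:38291463-38300706 (minus) and Klf13 at chr7:63886351-63938915 (minus). Genes on the opposite strand overlap Klf7 and Klf13. Of these, only Gm26649, within Klf7, was in the table, with 8 UMIs in all cells.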

How the data were processed

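Tissue was dissociated with papain and cleared of myelin and debris. The authors mapped 10x Chromium reads to GRCm38 with Cell Ranger 2.2.0 and deposited 1 table of filtered UMI counts, which are whole numbers without normalization. The annotation release is not given in the sources used here. Its 29571 cell columns carry codes that match no sample label, and library 7 was assigned through the listed barcodes. The other 8 samples could not be placed, and with 1 library per group no test was run.

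The 6 genes and all lists were chosen with earlier results of these data known. Named genes were the members and, from each list, the 4 with the highest level among listed cells and the 2 with the largest ratio of the leading type to the other cells, and the 3 genes most like each member. Exceptions are marked. Ratios add 10 CPM. Calls need at least 2-fold and genes of at least 20 UMIs. Thinning drew 500 UMIs per cell at random and left shallower cells out (3 of 573 listed endothelial cells and 7 of 549 microglia, but 539 of 3366 endothelial-like and 868 of 3382 microglia-like cells over all libraries, with 79 of 108 and 412 of 463 in library 1).

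Cells were clustered on 2000 variable genes, 13 principal components, 20 neighbours and Leiden resolution 1, and named from at least 3 markers. Scrublet in scanpy 1.11.5 called 0% to 1.85% of cells per library, too few to have worked in most, so all cells were kept. Python 3.11.15, scipy 1.17.1 and leidenalg 0.10.2 were used. On simulated data of 1918 cells, 88.4% lay in clusters named as their type (adjusted Rand index 0.695). In simulated endothelial cells against the others over 9483 genes, 98.0% of 200 genes changed 4-fold were called. Alternatives were other cell minimums, totals, pseudocounts, resolutions and doublet cuts, a mean over cells, subtraction of free RNA, and the loss of the cell with most UMIs.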

Additional observations from a re-analysis of the deposited data

How the results depend on the processing

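Depth limits these values: Klf10 rests on 52 UMIs in the listed cells, types of under 100 cells have wide intervals, and all intervals cover counting error only. No paired analysis was possible because each group has 1 library. The 5 members at least 2-fold higher in endothelial cells were also 5 with a pseudocount of 1 CPM and in cells of at least 1000 UMIs. A filter to genes of at least 100 UMIs could not change this count, as these members have 187 to 1569 UMIs in the listed cells. The count was not repeated under the other alternatives. The macrophage order of Klf10 did not hold: its ratio to endothelial cells, 2.07, became 0.572 (macrophages at 14.3 CPM) without the 5% of cells with the highest Scrublet scores and 0.851 (24.8 CPM) without the cell with most UMIs. With cells of at least 1000 UMIs only, Klf2 in endothelial cells was 1328 CPM, its ratio to microglia 1.73, the Klf13 ratio of endothelial cells to macrophages 7.94, and the library ratios of Klf2 and Klf13 5.08 and 2.98. With totals that leave out mitochondrial, hemoglobin and pituitary hormone genes, Klf2 in endothelial cells was 1612 CPM, and the library ratios of Klf2, Klf7, Klf10 and Klf13 were 3.13, 1.81, 1.27 and 1.56. With the mean over cells, the Klf2 ratio to microglia was 3.55 and the library ratios of Klf2, Klf10 and Klf13 were 3.57, 1.25 and 1.61. At Leiden resolution 0.5, endothelial-like cells were highest for Klf13 in 8 libraries instead of 5, and without the mixed clusters, an alternative chosen after seeing the data, for Klf7 in 7 instead of 3. The cause of these shifts was not tested, apart from the cells or genes each alternative leaves out. The clusters rebuilt from library 7 alone named no macrophages, so ratios to macrophages have no value under that alternative. Of 565 other values under an alternative, 464 stayed within the main interval or within 1.5 times and 101 moved. Among them was the loss of the top cell from endothelial-like cells of each library, chosen after seeing the data. Reversal was defined only for ratios, which are not among these values.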
